A study of Mus musculus with 9 samples.

Results

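The step from CD4 CD8 double-positive (DP) to CD8 single-positive (CD8SP) thymocytes was followed in mice with a floxed or a wild-type Brd1 gene, with 4 of the 9 arrays of the series: polyclonal CD8SP cells and DP cells, each from a genotype labelled conditional knockout (CKO) and a control. The arrays were chosen by their labels, as all CD8SP arrays without the OT-l transgene and all DP arrays. Per the labels, CKO mice were Brd1flox/flox with Tie2-Cre and control mice Brd1+/+ with Tie2-Cre, so both genotypes carried the Cre transgene; all 4 samples came from 8-week-old C57BL/6 mice, and cells were sorted by their surface markers. Tie2-Cre is active in endothelial cells and in the blood lineage, so other blood cells are targeted along with thymocytes. The fit described below also drew on the remaining arrays of the series. These were CD4SP cells of both genotypes and TCRb-negative CD4SP cells of CKO mice, all 8 weeks old. The rest were OT-l CD8SP cells of both genotypes from 14-week-old mice. Each group is 1 array, and nothing says whether the samples came from separate mice or pools. In what follows, the CKO transition is the CD8SP CKO minus the DP CKO level of a gene, and the control transition is the CD8SP control minus the DP control level. A level is the log2 signal minus the 75th percentile of its array, and all differences are on this log2 scale.

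In the thymus, DP cells rearrange the T cell receptor alpha gene with the Rag recombinase. A DP cell whose receptor recognises MHC class I silences Cd4 through the transcription factor Runx3 and becomes a CD8SP cell. Maturing cells then acquire Klf2 and the receptor S1pr1, with which they leave the thymus, and resting killer cell transcripts such as those of Nkg7 and Ccl5. Brd1 encodes a bromodomain subunit that brings the histone acetyltransferase Kat7 to chromatin.

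Between 39.0% (CD8SP control) and 45.9% (DP control) of the 55537 probes were well above background on the 4 arrays, and no spot was saturated. The 75th percentile of the signal was 118 intensity units in CD8SP CKO and 90.7 in CD8SP control, against 115 in DP CKO and 128 in DP control cells. Over 18845 genes well above background on at least 2 of the 4 arrays, the median CKO transition was -0.07 and the median control transition 0.23. The median of their difference was -0.34; with the percentile taken only over probes that all 9 arrays detected (the percentile of detected probes) it was 0.02, and with quantile normalization -0.10. Among 16294 genes above background on none of the 4 arrays, the median was 0.19 in the CKO and 0.86 in the control transition, so a weak signal lay higher on the CD8SP control than on the DP control array. The CD8SP CKO array lay on slide 2 and the other 3 on slide 1: slide and population cannot be told apart in the CKO transition, whereas the control transition lies within slide 1. The Brd1 probe was not lower on the CKO arrays, with levels of -0.73 in CKO and -1.37 in control CD8SP cells, against -0.33 in CKO and -0.79 in control DP cells. Where the probe lies relative to the floxed exons was not analysed here, so it does not check the deletion.

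CD8SP cells of both genotypes had more transcript than DP cells of 16 of 33 egress genes, 10 of 19 killer cell genes, 9 of 21 interferon-stimulated genes and 6 of 18 MHC class I presentation genes, and less of Cd4 and of 8 of 20 genes of the DP stage; the other members did not pass, except Plxnd1 of the egress list, which fell. Of 20216 genes tested with limma (an additive fit of population and genotype on all 9 arrays), 492 rose, which is 2.43% of those tested, and 212 fell, which is 1.05%, at an adjusted p below 0.05. Of these, 398 and 140 have gene symbols. The gene lists share members, so their counts are not separate results. For example, H2-K1 and H2-D1 count in the egress and the MHC class I list, and Il7r in the egress and the cytokine receptor list. With 1 array a group, the error is the spread of the genotype difference between populations, and p-values measure only that. The called changes were large: the median was 3.29 among the genes that rose and -2.18 among those that fell, and the smallest was 1.35 in size. All 704 called genes changed in the same direction and past 2-fold in each genotype. Of the 492 that rose, 152 were well above background on no DP array. Of the 212 that fell, 86 were well above background on no CD8SP array. For these genes the size of the change rests partly on signal below background. Of all 704, 380 were well above background on all 4 arrays. The fit favours genes whose transitions are alike, so this is a description of the calls. So are the statements below that the arrays of a called gene did not overlap. The fit called 78 genes without the CD8SP control array and 0 without any other of the 4 arrays (2324 to 5268 at an unadjusted p below 0.05). Whichever array was left out, no sign turned among the 704, and their unadjusted p stayed under 0.05. An exact permutation test of 1 gene on 2 against 2 arrays cannot give a p below 0.333.

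**Figure D1:**
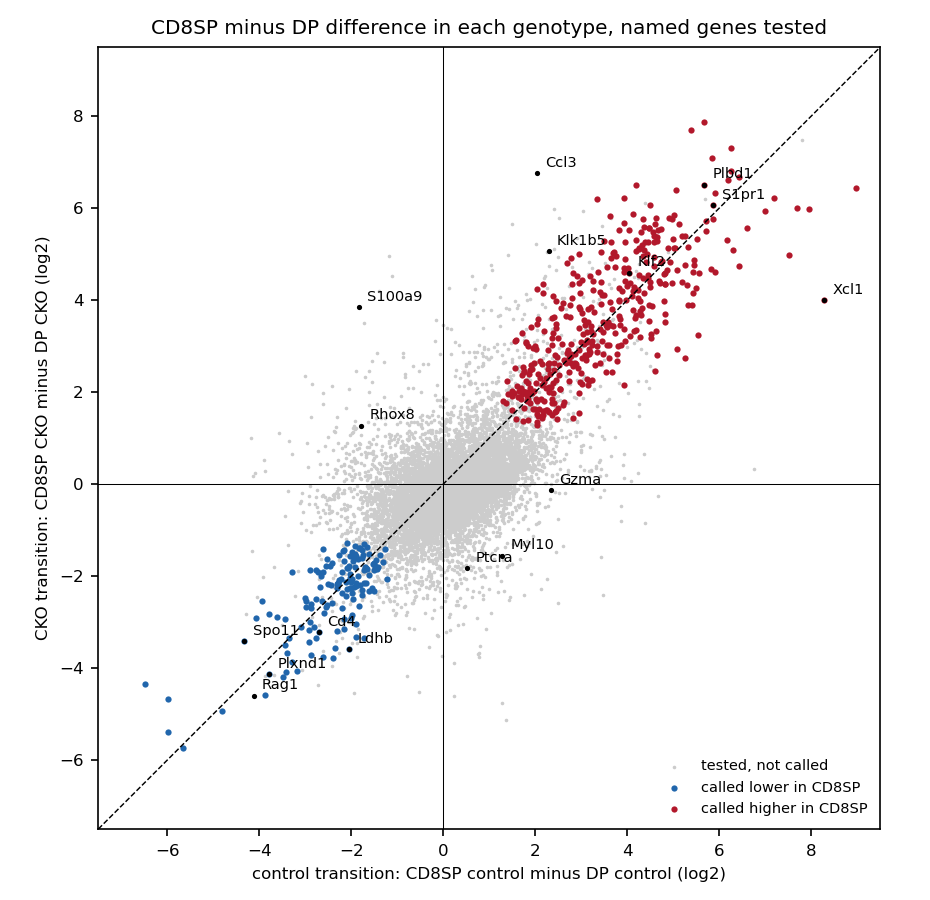
CKO transition (y axis, CD8SP CKO minus DP CKO, log2) against control transition (x axis, CD8SP control minus DP control, log2) for each of the 12269 named genes tested, with the genes called higher or lower in CD8SP cells in colour and equal transitions on the dashed line. S1pr1 (6.06 and 5.87) lies on the line, Ptcra (-1.83 and 0.52) below it, and Rhox8 (1.27 and -1.78) above it.

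The sort was checked first on the co-receptor transcripts. Cd4, the co-receptor of MHC class II-restricted cells, had levels of 3.28 in CKO and 3.50 in control CD8SP cells, against 6.49 in CKO and 6.22 in control DP cells, and fell by 2.96 (SE 0.27, limma adjusted p = 0.00925). Both CD8SP arrays were below both DP arrays. Cd8a, the alpha chain of the MHC class I co-receptor, was at 4.70 in CKO and 4.60 in control CD8SP cells, against 4.71 and 5.46 in CKO and control DP cells. Cd8b1, its beta chain, was at 5.73 and 5.64 in CKO and control CD8SP cells, against 6.33 and 6.65 in the DP cells. Neither passed (fitted -0.44 and -0.81, adjusted p = 0.522 and 0.298). The T cell receptor genes Cd3d, Cd3e and Cd3g lay between 7.45 and 9.26 on the 4 arrays.

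Among 20 tested genes of the DP stage, 8 fell, 0 rose and the median was -1.79, against 0.03 for all genes tested. Regulators of transcription and chromatin were among those that fell. Ets2, an Ets family factor, had 3.71 in CKO and 4.21 in control CD8SP cells, against 6.31 in CKO and 7.09 in control DP cells (fitted -2.74, SE 0.30, adjusted p = 0.014). Bcl6, a transcriptional repressor, had 2.63 and 2.38 in CKO and control CD8SP cells, against 5.13 and 5.14 in the DP cells (fitted -2.63, adjusted p = 0.0257). Satb1, an organiser of chromatin in thymocytes, had 5.79 and 5.44 against 7.40 and 7.38 in the same order (fitted -1.77, adjusted p = 0.026). The CD8SP and DP arrays did not overlap for Ets2, Bcl6 or Satb1. The others were Ldhb (lactate dehydrogenase B, -2.82), Tdrd5 (a tudor domain protein, -2.50), Rmnd5a (a ubiquitin ligase subunit, -2.24), Ccr9 (the chemokine receptor that holds cells in the thymic cortex, -1.80) and Spo11 (the meiotic DNA nuclease). Spo11 was not well above background on either CD8SP array, at -4.57 in CKO and -4.85 in control cells, against -1.15 in CKO and -0.52 in control DP cells, so it fell by at least 2.00. Here "at least" counts a group below background at the lowest signal well above background on its arrays, or at its own signal where that is higher.

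None of the 12 recombination genes was called by limma (median -0.53, 4 at an unadjusted p below 0.05), although both Rag genes were well separated between the populations. Rag1, the catalytic subunit of the recombinase, was at 3.49 in CKO and 3.95 in control CD8SP cells, against 8.09 in CKO and 8.07 in control DP cells; the fitted difference was -4.36 (SE 1.14, adjusted p = 0.105). Rag2, its partner, was at 1.61 and 2.58 in CKO and control CD8SP cells, against 4.71 and 4.75 in the DP cells (fitted -2.64, adjusted p = 0.241). For both genes the CD8SP arrays were below the DP arrays in each genotype. The error of the fit comes from all populations that have both genotypes, not only DP and CD8SP cells. In OT-l CD8SP cells, which carry a T cell receptor transgene, Rag1 was at -1.21 in CKO and 1.94 in control cells. In CD4SP cells it went the other way, at 2.88 in CKO and 0.62 in control cells. Dntt, the template-free polymerase that adds bases at the joints, was at 8.70 and 9.60 in CKO and control CD8SP cells, against 10.46 and 10.30 in the DP cells (fitted -1.23, adjusted p = 0.487). Of the TCR complex and proximal signalling genes, 1 of 27 fell and 0 rose: Cbl, a ubiquitin ligase that dampens receptor signals, had a fitted difference of -1.64 (adjusted p = 0.0413). Among 20 genes of positive selection and TCR signals, Id2 (an inhibitor of E proteins, 2.87) and Cd53 (a tetraspanin, 2.78) rose and Dusp5 (a MAP kinase phosphatase, -2.75, well above background on 1 of 2 CD8SP arrays) and Bcl11b (a T lineage factor, -1.74) fell. Egr1, an early gene of receptor signalling, had a fitted difference of 0.07 (adjusted p = 0.916), and Cd69, an activation marker, one of 0.82 (adjusted p = 0.362).

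Promoters are shown of 3 genes described in detail: Klf2, called higher in CD8SP cells, Rag1, with a wide difference that did not pass, and Ptcra, the pre-T cell receptor alpha chain of earlier cells, whose transitions in the 2 genotypes differed in sign. The sequences are from RefSeq (GRCm38.p6), 250 bases before to 50 after the gene start, 5′ to 3′ on the gene's strand. Ptcra lies at chr17:46763663-46763962 (minus strand), Rag1 at chr2:101649483-101649782 (minus strand) and Klf2 at chr8:72318812-72319111 (plus strand). Capitals mark matches, on both strands, to E-box letters (CAGGTG or CACCTG), Kruppel-like factor letters (CACCC or GGGTG) and Runx letters (TGTGGT or ACCACA).
Ptcra: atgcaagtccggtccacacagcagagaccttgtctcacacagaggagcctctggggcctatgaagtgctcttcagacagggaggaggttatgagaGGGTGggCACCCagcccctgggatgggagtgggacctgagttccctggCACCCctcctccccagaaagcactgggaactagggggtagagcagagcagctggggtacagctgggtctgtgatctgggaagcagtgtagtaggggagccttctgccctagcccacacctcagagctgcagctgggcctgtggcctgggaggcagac
Rag1: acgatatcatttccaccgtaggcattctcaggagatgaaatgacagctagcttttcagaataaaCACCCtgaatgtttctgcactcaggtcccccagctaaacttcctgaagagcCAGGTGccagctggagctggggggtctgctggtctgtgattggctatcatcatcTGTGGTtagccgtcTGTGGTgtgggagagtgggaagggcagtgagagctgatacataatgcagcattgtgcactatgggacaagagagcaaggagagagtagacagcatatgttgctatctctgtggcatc
Klf2: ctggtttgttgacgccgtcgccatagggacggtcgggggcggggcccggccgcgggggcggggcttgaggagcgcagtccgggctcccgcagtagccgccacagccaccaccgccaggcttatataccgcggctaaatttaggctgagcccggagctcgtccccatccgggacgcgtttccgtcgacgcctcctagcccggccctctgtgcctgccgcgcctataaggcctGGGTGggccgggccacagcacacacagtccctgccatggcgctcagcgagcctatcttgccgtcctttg
Rag1 holds 1 E-box, 1 Kruppel-like and 2 Runx matches, Ptcra 3 Kruppel-like matches and Klf2 1 such match; no matches overlap in these promoters. Of the 15 genes with the largest rises named below, 10 have a promoter in the table, and 5 of them (50%) hold the Runx letters, against 2 of 11 (18.2%) for the genes with the largest falls and 18.9% of all 27025 promoters. The Kruppel-like letters stand in 7 of 10 (70.0%) and 8 of 11 (72.7%), against 59.8% of all, and the E-box letters in 1 of 10 and 0 of 11, against 22.6%. These are letters in a window, not sites.

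The mature thymocyte and egress list had the most calls of any list, with 16 of 33 genes higher, 1 lower and a median of 2.69. S1pr1, the sphingosine 1-phosphate receptor that guides cells out of the thymus, was at 4.59 in CKO and 3.25 in control CD8SP cells, against -1.47 in CKO and -2.62 in control DP cells (fitted 5.97, SE 0.49, adjusted p = 0.00789). Klf2, the transcription factor that turns on S1pr1, was at 7.77 and 6.06 in CKO and control CD8SP cells, against 3.18 and 2.02 in the DP cells (fitted 4.32, adjusted p = 0.00924). Both CD8SP arrays were above both DP arrays for each gene. Ccr7, which draws cells to the medulla, was at 8.05 and 6.90 in CKO and control CD8SP cells, against 3.10 and 2.55 in the DP cells (fitted 4.65, adjusted p = 0.0116). Il7r, the interleukin-7 receptor alpha chain, was at 4.48 and 2.67 in the CD8SP cells, against 0.20 and -1.81 in the DP cells, CKO first in each pair (fitted 4.38, adjusted p = 0.041). In these 4 genes the CKO array was above the control array in both populations, and the 2 transitions differed by 0.60 or less. Plxnd1, a semaphorin receptor of cortical thymocytes, went the other way, at 2.38 in CKO and 2.58 in control CD8SP cells, against 6.52 in CKO and 6.38 in control DP cells. Its fall of 3.97 (SE 0.35, adjusted p = 0.00852) was the largest among the named genes of at least median brightness. Of the other called members, integrin beta 7 (Itgb7, 3.93), Ms4a4b (4.87), Ms4a6b (3.33), Slfn1 (at least 4.27), the Ly6 proteins Ly6c1 (3.48) and Ly6a (3.42), the intermediate filament Vim (2.69) and the complement regulator Cd55 (at least 0.86) rose. H2-K1 and H2-D1, given below with the MHC class I genes, are members of this list too.

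The Gimap GTPases, which support the survival of mature lymphocytes, rose in 4 of 8 members. Gimap3 was at 6.48 in CKO and 4.84 in control CD8SP cells, against 2.39 in CKO and 0.73 in control DP cells (fitted 4.10, adjusted p = 0.0104), and Gimap4, Gimap5 and Gimap7 had fitted rises of 3.73, 1.89 and 2.11. The 4 others lay between -0.83 (Gimap9) and 0.43 (Gimap8) and did not pass. Cytokine receptors rose in 4 of 19, namely Il7r, Il2rb (the interleukin-2 and interleukin-15 receptor beta chain, 4.79), Il6ra (3.49) and Tnfrsf1b (2.30), while Il2rg, the common gamma chain, had a fitted difference of 0.67 (adjusted p = 0.283). In the Bcl2 family, Bcl2l1 (Bcl-xL, the survival factor of DP cells) fell by 2.17 and the killer Bmf by 2.34, Bcl2a1d rose by 3.32, and Bcl2 had a difference of 1.15 (adjusted p = 0.13).

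**Figure D2:**
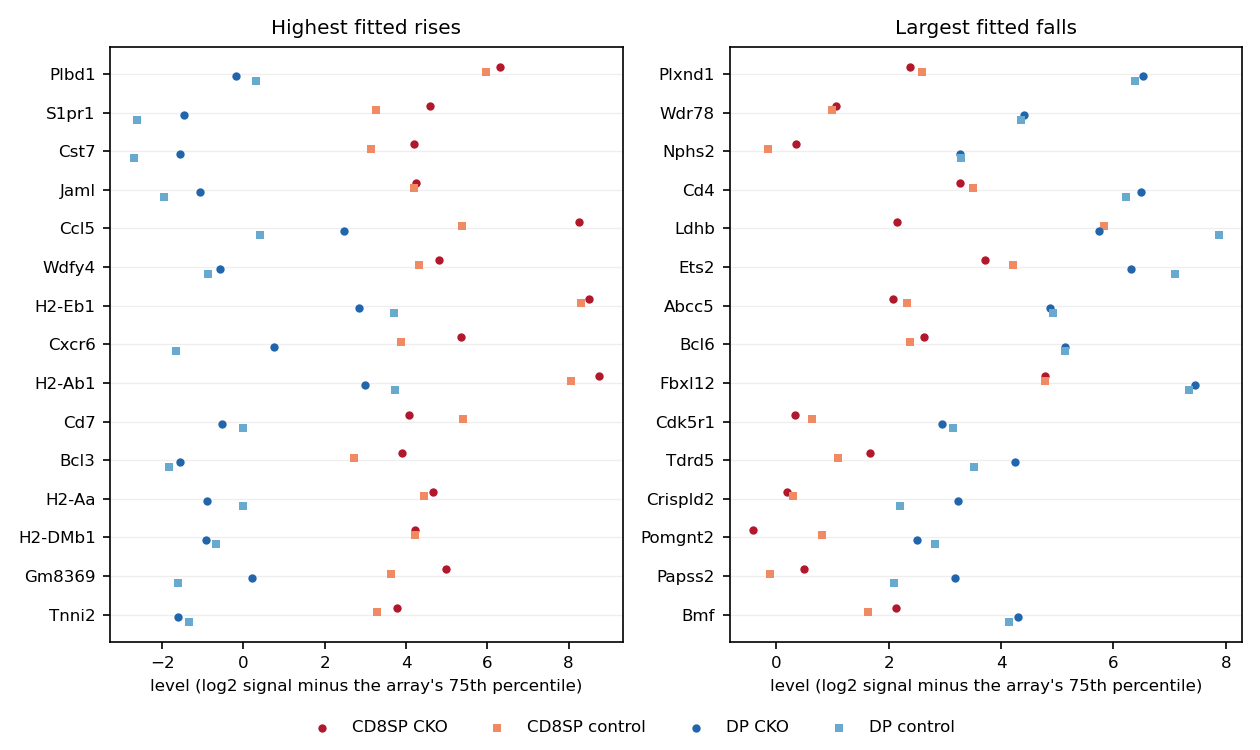
Levels (log2 signal minus the 75th percentile of the array) of the 15 named genes with the largest rise (left) and fall (right) on the CD8SP CKO, CD8SP control, DP CKO and DP control arrays, 1 point per array. Both CD8SP points lie on one side of both DP points in each gene except Ldhb, as for Plbd1 (6.32 and 5.97 against -0.19 and 0.30). The genes were chosen as called and past 2-fold in both genotypes, so this separation largely follows from the choice.

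CD8 lineage and killer cell transcripts rose in both genotypes, 6 of 19 and 10 of 19 genes, with medians of 1.43 and 4.41. Runx3, which silences Cd4, was at 0.79 in CKO and 0.32 in control CD8SP cells, against -1.84 in CKO and -2.46 in control DP cells (fitted 2.71, SE 0.28, adjusted p = 0.0123). Eomes, a T-box factor of killer and memory cells, was at 0.63 and -1.17 in CKO and control CD8SP cells and not well above background in either DP sample, a rise of at least 3.11. Both CD8SP arrays were above the DP arrays for these factors. Ccl5, a chemokine stored by killer cells, was at 8.25 in CKO and 5.37 in control CD8SP cells, against 2.48 in CKO and 0.41 in control DP cells (fitted 5.37, adjusted p = 0.00789). Cst7, an inhibitor of granule proteases, was at 4.20 and 3.15 in CKO and control CD8SP cells, against -1.57 and -2.70 in the DP cells (fitted 5.81, adjusted p = 0.00954). On the DP side some of the genes that follow are weak: Gzmm and Cxcr3 here, Ifit3, Rsad2, Cx3cr1, Hk2 and Cd160 further on, and Ms4a6b above were well above background on 1 of 2 DP arrays. Nkg7 (a granule protein, 4.04), Ctsw (cathepsin W, 4.70), Gzmm (granzyme M, 2.14), Prf1 (perforin, 1.77), Cxcr3 (a chemokine receptor, 5.07), Il2rb and Cd7 (5.02) rose as well. Xcl1, a chemokine for dendritic cells, was called (6.14, adjusted p = 0.0416) although its transitions were unequal, 4.00 in CKO and 8.28 in control cells. The DP control array was at -4.99 and the DP CKO array at -1.42, and only 1 of the 2 was well above background. Gzma, granzyme A, was not called (1.10, adjusted p = 0.707): it was at 7.57 and 7.82 in CKO and control CD8SP cells, against 7.71 in CKO and 5.47 in control DP cells. Socs1, an inhibitor of cytokine signals, fell by 1.93 (adjusted p = 0.0193). Of 10 CD4 lineage genes, Ccr4 fell by 3.24 (adjusted p = 0.0491, well above background on 1 of 2 CD8SP arrays), and Zbtb7b, the factor that fixes the CD4 lineage, had a fitted difference of 0.41 (adjusted p = 0.534).

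Interferon-stimulated genes rose in 9 of 21 with a median of 2.61, and none fell. Isg15, a ubiquitin-like protein, was at 6.21 in CKO and 5.64 in control CD8SP cells, against 3.53 in CKO and 3.02 in control DP cells (fitted 2.65, SE 0.42, adjusted p = 0.034). Irf7, the interferon regulator, was at 2.34 and 1.01 in CKO and control CD8SP cells, against -0.75 and -1.98 in the DP cells (fitted 3.04, adjusted p = 0.0209). Bst2 (2.61), Rtp4 (2.94), Oasl2 (3.72), Rsad2 (2.50), Irf8 (3.28), Ifit3 (5.72) and Ifit1 (at least 3.70) were the other calls. Ifit2 had a fitted difference of 0.03 (adjusted p = 0.982), so members of 1 family stood apart. MHC class I presentation genes rose in 6 of 18 (median 1.30): B2m, the light chain, was at 9.56 in CKO and 8.59 in control CD8SP cells, against 7.30 in CKO and 6.13 in control DP cells (fitted 2.36, adjusted p = 0.0272). The heavy chains H2-K1 (4.76), H2-D1 (2.74), H2-Q7 (2.94) and H2-M3 (2.23) and the transactivator Nlrc5 (3.17) rose, whereas the peptide transporter genes Tap1 (0.91) and Tap2 (-0.27) did not pass. Chemokine receptor and adhesion genes rose in 6 of 21, among them Cxcr6 (5.07) and Cx3cr1 (3.24), and fell in 3, Ccr4, Ccr9 and Plxnd1. Relb (2.39) and Bcl3 (5.01) of 12 NF-kappaB genes, Atf3 (at least 1.99) of 18 immediate early and heat shock genes, and the G1 cyclins Ccnd1 (at least 4.54) and Ccnd2 (4.44) of 14 G1 genes rose.

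**Figure D3:**
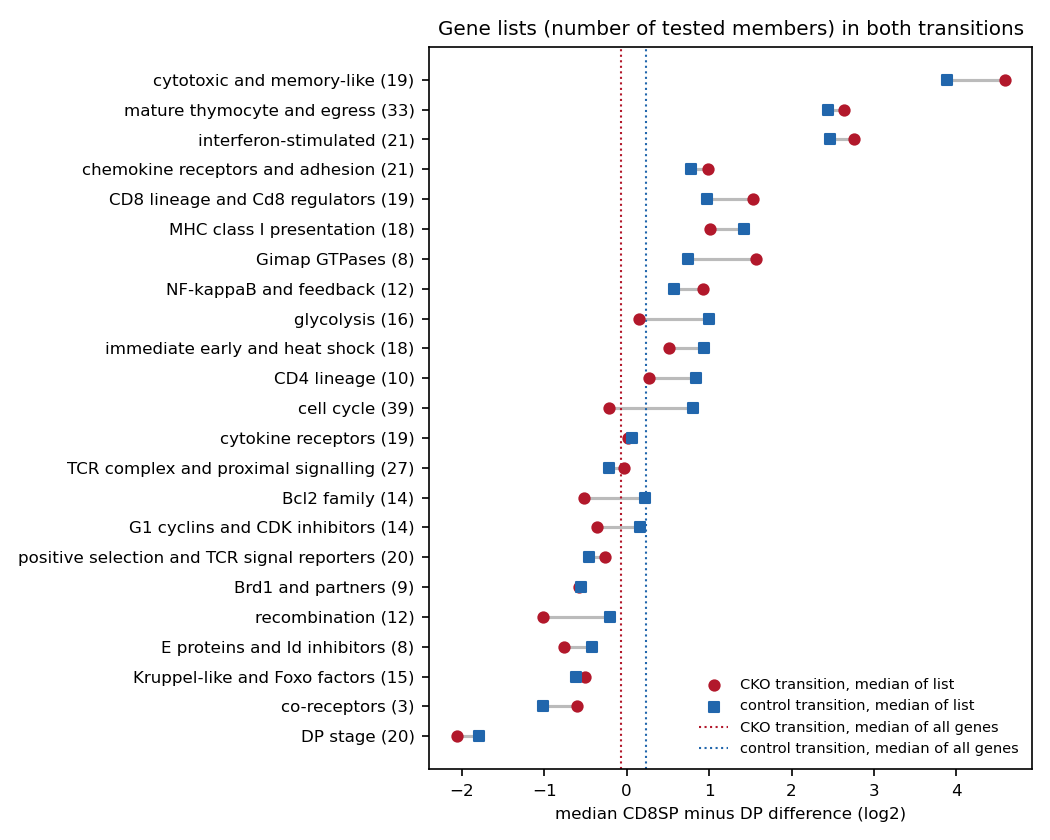
Median CD8SP minus DP difference (log2) of each gene list, with the number of tested members in brackets, in the CKO transition (circles) and the control transition (squares); dotted lines are the medians of all genes above background on at least 2 of 4 arrays (-0.07 CKO, 0.23 control). The cell cycle list lies at -0.22 in the CKO and 0.81 in the control transition, on opposite sides of 0.

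Several of the strongest rises were in genes of antigen-presenting cells, measured in samples sorted as CD8SP thymocytes. H2-Ab1, an MHC class II chain, was at 8.76 in CKO and 8.07 in control CD8SP cells, against 3.00 in CKO and 3.72 in control DP cells (fitted 5.05, SE 0.47, adjusted p = 0.00954). H2-Eb1 (5.14), H2-Aa (5.01), the class II peptide loader H2-DMb1 (5.01) and the invariant chain Cd74 (4.86) rose with it. Wdfy4, which dendritic cells need to present captured antigen, was at 4.80 and 4.31 in CKO and control CD8SP cells, against -0.59 and -0.87 in the DP cells (fitted 5.29, adjusted p = 0.00548). Plbd1, a phospholipase of myeloid cells, was at 6.32 and 5.97 in CKO and control CD8SP cells, against -0.19 and 0.30 in the DP cells, and its rise of 6.09 (SE 0.34, adjusted p = 0.00548) was the largest of the named genes of at least median brightness. The CD8SP and DP arrays did not overlap for any of these genes. Of the 16 tested myeloid and dendritic markers, 6 rose (Itgax, the integrin CD11c, 4.69; Mpeg1, 4.92; and the 4 class II genes named above other than H2-DMb1) and 2 fell, the macrophage complement genes C1qa (bound -1.43) and C1qc (bound -2.42), neither of them well above background in CD8SP cells. The macrophage marker Adgre1 was above background on none of the 4 arrays. The log2 of the summed signal of this list was 10.54 in CKO and 10.06 in control CD8SP cells, against 8.80 in CKO and 9.30 in control DP cells. Bulk RNA cannot tell more cells of a type from more transcript per cell, and the part of these cells in the called changes was not tested.

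A second contrast of the same fit set CD8SP against CD4SP cells, the MHC class II-restricted outcome of the DP stage, and called 54 genes higher (0.267% of 20216) and 26 lower (0.129%). None of the CD8 lineage and killer cell genes named above as rising passed this contrast. The fitted difference from CD4SP cells was 0.78 for Runx3 (limma adjusted p = 0.35), 2.38 for Ccl5 (adjusted p = 0.147) and -0.05 for Cxcr3 (adjusted p = 0.97). The genes with the largest differences that were also called against DP cells included dendritic cell genes. Cd207 (langerin) was at -0.30 in CKO and 2.01 in control CD8SP cells and not well above background on the CD4SP or DP arrays. It was higher by at least 3.93 against CD4SP cells (adjusted p = 0.032) and by at least 4.23 against DP cells. Clec9a, a receptor of cross-presenting dendritic cells, was at 0.92 and 0.20 in CKO and control CD8SP cells, which is at least 3.63 above CD4SP cells (adjusted p = 0.0277) and at least 3.94 above DP cells. Gpr141b (at least 3.87 above CD4SP cells), Sult1a1 (a sulfotransferase, at least 4.62) and BC028528 (at least 3.10) were higher too. Wdfy4 differed by 5.06 between CD8SP and CD4SP cells, and Rab7b (a small GTPase, 5.72) and Ifi211 (an interferon-inducible protein, 5.19) were well above background on 1 of 2 CD4SP arrays. On the lower side, C1qc was well above background only in CD4SP and DP cells among these 3 populations, with 1.07 in CKO and 1.66 in control CD4SP cells, a CD8SP minus CD4SP difference of -4.20 or beyond (adjusted p = 0.0194). C1qa had a bound of -3.17, Ms4a7, a macrophage membrane protein, one of -2.71, and Gdf11, a TGF-beta family ligand, one of -0.78. Cd4 differed by -3.07 and Pdzk1ip1 by -3.07. Pdzk1ip1 lay between the other populations, since it was higher in CD8SP than in DP cells by at least 1.30. Igf1 and the iron exporter gene Slc40a1 were well above background on 1 of 2 CD4SP arrays, with bounds of -0.91 and -0.28. Of the DP and CD8SP arrays, Igf1 was well above background on none and Slc40a1 on DP control only. Their calls against DP cells thus rest on signal near or below background.

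**Figure D4:**
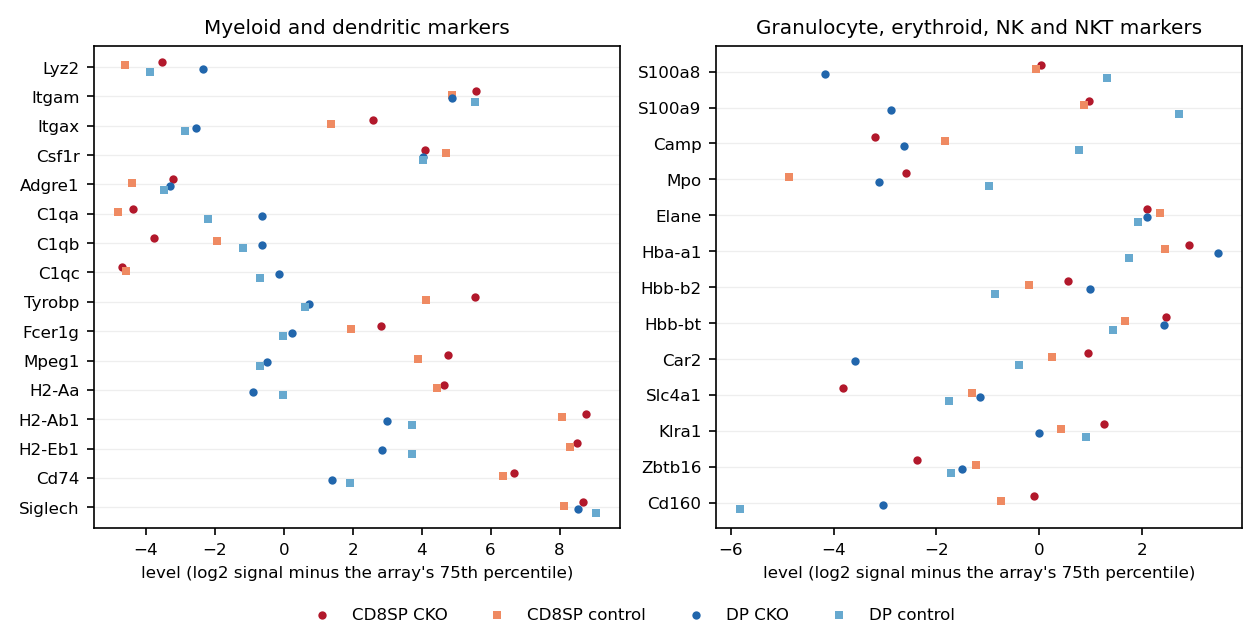
Levels (log2 signal minus the 75th percentile of the array) of the tested myeloid, dendritic, granulocyte, erythroid, NK and NKT markers on the CD8SP CKO, CD8SP control, DP CKO and DP control arrays, 1 point per array. The class II genes H2-Aa, H2-Ab1, H2-Eb1 and Cd74 lie higher in both CD8SP samples, C1qa and C1qc lower, and S100a8 and S100a9 are highest in DP control cells.

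Markers of other cells gave fewer calls. None of the 5 tested B cell markers was called by limma (1 at an unadjusted p below 0.05), and Pax5 and Ebf1 were above background on none of the 4 arrays. None of 5 granulocyte markers was called (0 at an unadjusted p below 0.05), but the DP arrays lay far apart, with DP control the highest and DP CKO the lowest of the 4 for 2 of them: S100a9, a granulocyte calcium-binding protein, was at 0.97 in CKO and 0.87 in control CD8SP cells, against -2.88 in CKO and 2.71 in control DP cells, and S100a8 at 0.02 and -0.06, against -4.17 and 1.33. The summed granulocyte signal was 2.94 in CKO and 3.07 in control CD8SP cells, against 2.28 in CKO and 3.94 in control DP cells, and Ngp, Ltf, Prtn3 and Retnlg were above background on none of them. No erythroid (5 tested), stromal or epithelial (5) or gamma delta T cell (4) marker was called by limma, and 0 of them had an unadjusted p below 0.05. Of 3 NK and NKT markers Cd160 rose (4.00), while Ncr1, Klrb1c and Klra8 were above background on none of the 4 arrays.

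The transitions were then compared gene by gene between genotypes. They share no array, and across 18845 genes, which are not independent replicates, Pearson's correlation was 0.57 and Spearman's 0.45. The sign was the same in both for 12630 of 20786 genes (60.8%). In the CKO transition 2037 genes (10.5% of 19452) were more than 2-fold higher in CD8SP cells and 2090 (10.7%) lower; in the control transition 3650 (18.3% of 19946) were higher and 2957 (14.8%) lower. The control split turned to 2098 higher and 4205 lower with the percentile of detected probes, and to 2428 and 3273 with quantile normalization. In both transitions 1283 genes were higher (6.17% of 20786) and 823 lower (3.96%), while 243 (1.17%) were past 2-fold higher in the CKO and lower in the control transition, and 110 (0.529%) the reverse. The difference between transitions was not tested. It was past 2-fold in 6412 genes, 2800 (13.5%) higher and 3612 (17.4%) lower in the CKO transition, with splits of 3974 and 1736 under the percentile of detected probes and 3087 and 2622 under quantile normalization.

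Cell cycle genes lay lower in the CKO than in the control transition. The median of 39 genes was -0.22 in the CKO and 0.81 in the control transition, and the median difference -1.15, against -0.34 for all genes. Of the 39, 38 had the lower value in the CKO transition, 24 of them by more than 2-fold, against 17.4% of all genes compared. The difference stayed below 0 in 38 genes with the percentile of detected probes (median -0.79, all genes 0.02) and in 37 with quantile normalization (median -0.66, all genes -0.10). The count past 2-fold was 8 with the percentile of detected probes, 6 with quantile normalization and 15 with normexp background correction. Over all 20786 genes compared, the counts past 2-fold lower were 1736, 2622 and 931 in the same order. None of the 39 was called by limma in the mean of both transitions (1 at an unadjusted p below 0.05). Gins2, a subunit of the replicative helicase complex, was at 1.27 in CKO and 3.19 in control CD8SP cells, against 1.26 in CKO and 1.47 in control DP cells. Mcm5, a helicase subunit, was at 5.88 and 7.32 in CKO and control CD8SP cells, against 5.74 and 5.70 in the DP cells, and Cdc6, which loads that helicase, at 0.68 and 2.70 against 0.51 and 1.20. In these 3 genes the CD8SP control array stood above the other 3. That array was the highest of the 4 in 34 of the 39 genes; the share over all genes was not counted. Mitotic genes had lower CKO transitions as well: Plk1, a mitotic kinase, had -0.58 in the CKO and 0.85 in the control transition, Ccnb1, cyclin B1, -0.47 and 0.79, and Foxm1, the factor that drives their transcription, -1.19 and 0.28. Cenpe, a kinetochore motor, was the exception, with -0.14 in the CKO and -0.46 in the control transition. Mki67, the proliferation marker Ki-67, was lower in CD8SP than in DP cells in both, with -0.70 in the CKO and -0.33 in the control transition. The list's median level on the OT-l arrays, which are on slide 2 and from 14-week-old mice, was 2.25 in CKO and 5.22 in control cells. It went the other way in CD4SP cells, at 2.40 in CKO and 1.99 in control, and in DP cells, at 4.08 in CKO and 3.88 in control. The CD8SP CKO array lies on the other slide from the remaining 3, and the part of slide in the difference between the transitions was not tested.

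Glycolysis genes showed the same order by a smaller margin. Their median was 0.15 in the CKO and 1.00 in the control transition. The median difference was -0.88, against -0.34 for all genes. In the CKO transition 13 of 16 lay lower, 8 by more than 2-fold. With the percentile of detected probes the median difference was -0.52 (10 of 16 below 0, all genes 0.02). With quantile normalization it was -0.29 (9 of 16, all genes -0.10). Past 2-fold lower were 2 genes under each of these scalings and 4 with normexp. Over all 20786 genes compared, 3612 (17.4%) were past 2-fold lower in the main scaling. The counts were 1736 with the percentile of detected probes, 2622 with quantile normalization and 931 with normexp. Under quantile normalization, 2 of 16 was close to the share of all genes. Tpi1, triose phosphate isomerase, was at 4.97 in CKO and 6.82 in control CD8SP cells, against 5.00 in CKO and 5.04 in control DP cells. Pgk1, phosphoglycerate kinase, was at 6.66 and 7.67 in CKO and control CD8SP cells, against 6.74 and 6.46 in the DP cells. As in the cell cycle list, the CD8SP control array was the highest of the 4, in 12 of the 16. The share over all genes was not counted here either, so this describes the list only. Hk2 (hexokinase 2) rose by 2.61 in the mean of both transitions (adjusted p = 0.014) and Ldhb fell. Ldhb was at 2.15 in CKO and 5.83 in control CD8SP cells, against 5.74 in CKO and 7.88 in control DP cells. It was lower in CKO than in control cells in both populations, and CD8SP control overlapped DP CKO.

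**Figure D5:**
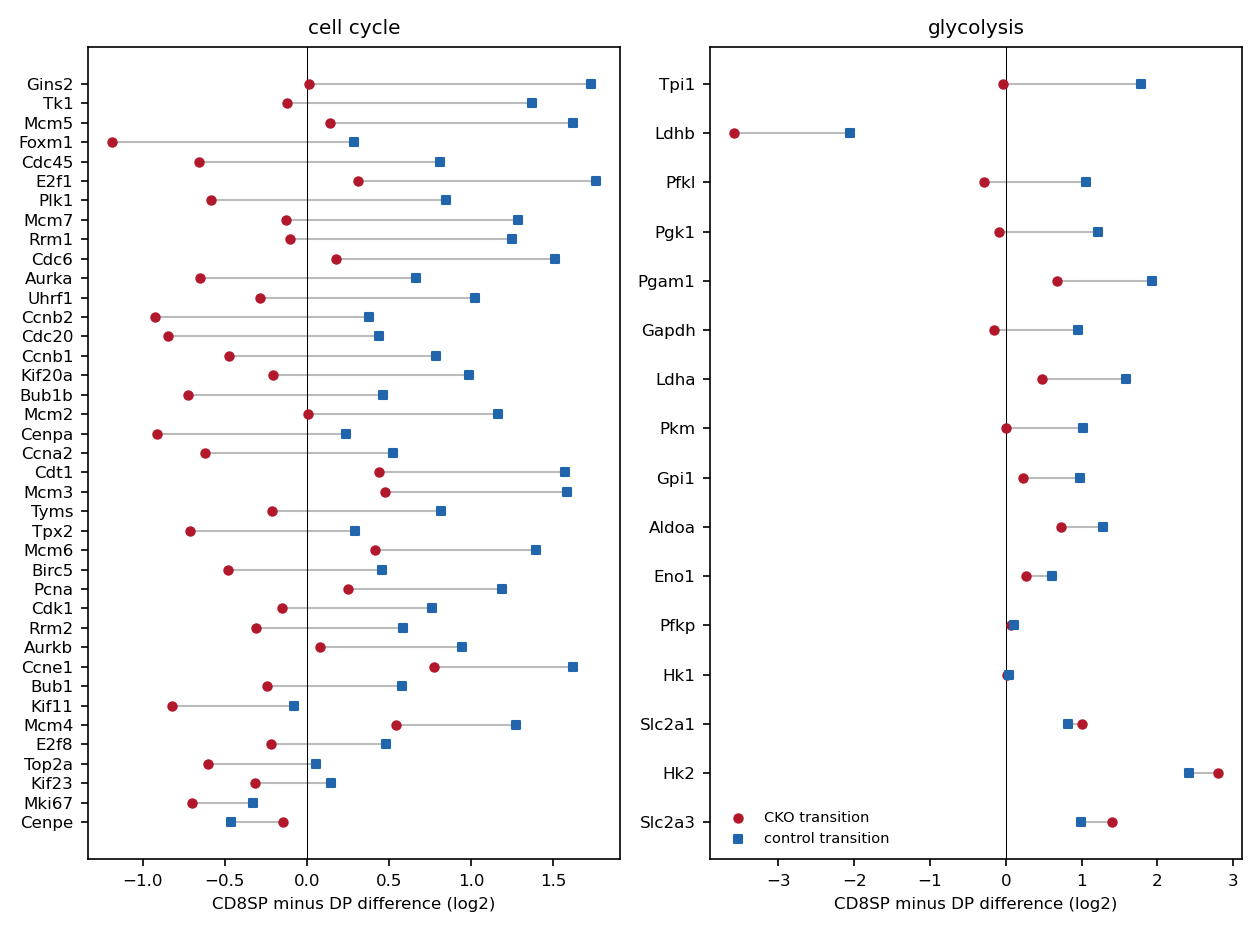
CD8SP minus DP difference (log2) of each tested cell cycle gene (left) and glycolysis gene (right) in the CKO transition (circles) and the control transition (squares), ordered by their difference. In 38 of 39 cell cycle genes and 13 of 16 glycolysis genes the CKO point is left of the control point.

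Lists of the DP stage and of egress had median differences between the transitions of -0.18 (8 of 20 genes above 0) and 0.37 (21 of 33 above 0), against -0.34 for all genes. With the percentile of detected probes the DP stage median turned to 0.18, and the egress median was 0.73. Within the DP stage list the transitions of Trib2 and Ptcra differed most, in opposite directions. Ptcra was at 2.11 in CKO and 4.36 in control CD8SP cells, against 3.94 in CKO and 3.84 in control DP cells. Of these 4 arrays CD8SP CKO was the lowest, and CD8SP control was the highest of all 9. In CD4SP cells Ptcra was at -0.74 in CKO and 0.33 in control, below both CD8SP arrays. The CKO transition of Ptcra was -1.83 and its control transition 0.52. On the OT-l arrays it was at -1.85 in CKO and 3.26 in control cells. Aqp11, an aquaporin, had -2.56 in the CKO and -1.31 in the control transition, and Endou, a nuclease, -2.29 and -1.10. Trib2, a pseudokinase, had 2.75 in the CKO and -0.87 in the control transition, with the DP CKO array at -2.29 and the DP control array at 2.46. Kruppel-like and Foxo factors had a median difference of 0.68, with 12 of 15 above 0, and one of 1.03 under quantile normalization and under the percentile of detected probes. Foxo1, which controls Il7r and Klf2, had 2.19 in the CKO and 0.69 in the control transition, and Klf7 -0.89 and -2.76. The complex around Brd1 showed no limma call in 9 genes (median -0.48, 4 at an unadjusted p below 0.05); Kat7, its acetyltransferase, was at 4.52 in CKO and 4.85 in control CD8SP cells, against 4.71 and 4.67 in CKO and control DP cells.

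Of the named genes of at least median brightness, the 12 with the largest differences in each direction were taken. Ranking on this difference itself favours certain orders of the 4 arrays, so the orders given here describe the choice. In 8 of the 12 genes higher in the CKO transition, DP control was the highest and CD8SP control the lowest of the 4 arrays, with both CKO arrays between. F10, coagulation factor X, was at 4.76 in CKO and 3.50 in control CD8SP cells, against 3.96 in CKO and 5.16 in control DP cells. Ubn2, a histone chaperone subunit, was at 2.39 and 1.05 in CKO and control CD8SP cells, against 2.09 and 3.00 in the DP cells. Gab3 (an adaptor protein), Mcemp1, Ermn, Dcc, Gcm1 and Patj shared this order. Klk1b5, a kallikrein, was at 4.08 in CKO and 1.06 in control CD8SP cells, against -0.98 in CKO and -1.23 in control DP cells, so both CD8SP arrays were above the DP arrays with transitions of 5.06 and 2.29. Ctla2a, a cathepsin inhibitor, had transitions of 4.49 in the CKO and 2.18 in the control. Among the 12 lower in the CKO transition, 7 were highest in CD8SP control and 5 in DP CKO cells. Egfl7, an endothelial secreted protein, was at 2.09 in CKO and 4.82 in control CD8SP cells, against 1.79 in CKO and 1.75 in control DP cells. Nme4, a mitochondrial nucleoside diphosphate kinase, was at 2.25 and 3.99 in CKO and control CD8SP cells, against 1.85 and 1.02 in the DP cells. Apoe, the lipid carrier of macrophages, was at 0.40 and 2.27 in CKO and control CD8SP cells, against 2.90 and 2.47 in the DP cells. The others were Myl10, Ccdc126, Camkv, Gzma, Ptcra, Odf3b, Ecm1, Sytl1 and Stra8, with differences between -2.83 (Myl10) and -2.22 (Stra8). Where a gene has several probes the value can rest on the brightest one: averaged over its probes, the difference of Dcc was 0.41 instead of 2.40, that of F10 1.11 instead of 2.46, and that of Ccdc126 -1.10 instead of -2.59.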

How the data were processed

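RNA of sorted thymocytes was measured on 1-colour (Cy3) arrays. Per the labels, material of about 30000 cells was labelled by a biotin protocol, whereas the file headers name a Cy3 scan. The deposited files hold, per the file headers, the processed intensity of each spot, background-subtracted and detrended by Agilent Feature Extraction 10.7.1.1. The deposited series table holds the same intensity scaled by each array's 75th percentile (r = 1 with the scanner values). Here spots were averaged per probe, and 144 of 55681 probes marked as outliers were left out. The log2 of the deposited intensity minus the 75th percentile of the array was used. RefSeq accessions named 26709 probes with 20254 symbols, each represented by its brightest probe; 28828 probes have no name. Names come from a later annotation than the array, so a probe may lie outside the present gene model.

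Genes well above background on at least 2 of 9 arrays entered a limma fit (version 3.58.1, R 4.3.3) with population and genotype as additive terms (3 residual degrees of freedom, prior 2.92), two-sided, with Benjamini-Hochberg adjustment over 20216 genes and a threshold of 0.05. Transitions within a genotype, and their difference, were not tested and were counted past 2-fold among genes well above background on at least 1 of the arrays compared. Precision is limited by the number of arrays; the median SD between spots of a probe was 0.0703 to 0.0816 on the 4 arrays. Alternatives were other scalings, normexp with an offset of 50, other filters, all probes, slide as a block, fewer arrays and the series table. The mean spot signal planned for normexp is no column of these files, so the median spot signal was used. The fit was tested on simulated data.

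The arrays, the 30 gene lists (23 of pathways, the rest of other cell types) and the rule for named genes were chosen with earlier results of these data known. Named were Brd1 and the co-receptors; up to 15 called genes a direction with the largest fitted difference, at or above median brightness and past 2-fold in both genotypes; up to 12 genes a direction with the largest difference between transitions, above background on at least 3 of 4 arrays; the leading and called members of each list; and up to 8 a direction also called against CD4SP cells. Other list members given in the text were chosen after their values were seen.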

Additional observations from a re-analysis of the deposited data

Results flagged for a closer look

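Among the genes named for the largest differences between transitions, 2 went past 2-fold in opposite directions in the CKO and control transitions, with all 4 arrays well above background. Rhox8, a homeobox gene of reproductive tissue, was at 3.88 in CKO and 1.94 in control CD8SP cells, against 2.61 in CKO and 3.72 in control DP cells. Its CKO transition exceeded its control transition by 3.05. Myl10, a myosin light chain, was at 1.23 in CKO and 2.31 in control CD8SP cells, against 2.79 in CKO and 1.04 in control DP cells. Its difference between transitions was -2.83. Each group is 1 array, and these differences were not tested. Averaged over its 2 probes, the value of Rhox8 was 1.74.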

How the results depend on the processing

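The number of genes limma called in CD8SP against DP cells was 704 (492 higher, 212 lower). It was 1552 (1063 and 489) with normexp and 1725 (1090 and 635) on the 4 arrays alone. With slide as a block it was 0 (2705 at an unadjusted p below 0.05), which for this contrast leaves out the CD8SP CKO array. Without 1 of the 4 arrays it was 0 to 78. It lay between 478 and 878 under the other alternatives, with 478 (292 and 186) for the percentile of detected probes and 632 for genes above background on all 4 arrays. All 704 kept their direction in each fit that held them. For CD8SP against CD4SP cells 80 became 29 with the percentile of detected probes (16 and 13), 0 with slide as a block (1780 at an unadjusted p below 0.05) and 147 without the OT-l arrays. Past 2-fold, 4127 genes in the CKO transition became 1572 with normexp and 2149 among genes above background on all 4 arrays. The 6607 in the control transition became 2746 (1800 higher, 946 lower) and 4209 (2901 and 1308), and the 6412 with a difference between transitions became 1740 (809 and 931) and 3549 (1133 and 2416), in the same order. The cause of these moves was not tested. Pearson's r of the transitions was 0.566 to 0.618. Of 203 single genes, 105 had a call, and all 105 lost it with slide as a block, where no gene was called. Of these 105, 19 lost it with quantile normalization and 30 with the percentile of detected probes. On the 4 arrays alone, 27 uncalled single genes gained a call. Among the called genes, none changed direction under any alternative that fitted it. Uncalled values near 0 could: the erythroid marker median in the mean of both transitions turned from 0.12 to -0.03 with the percentile of detected probes. No paired analysis was possible because the labels give no replicate numbers; genotype, which pairs the arrays, is already a term of the fit. Each group is 1 array, and differences between the transitions were not tested.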
